A study of Homo sapiens with 24 samples.

Results

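The nuclear genes for the subunits of the mitochondrial respiratory chain and of ATP synthase were followed through 24 two-colour expression arrays of human cancer cell lines. Members were chosen by array gene name, as all genes whose name begins with NDUFA, NDUFB, NDUFC, NDUFS, NDUFV, UQCR or ATP5, or with COX followed by a digit from 4 to 8, without assembly factors and pseudogenes. This gave 83 genes of the 20553 genes matched to RefSeq on the first array design and of 21422 on the second, with 39 named for complex I, 8 for complex III, 18 for complex IV and 18 for ATP synthase (complex V). The rule is one of names, and a few members it takes in are no subunits in today's nomenclature: COX4NB is now EMC8, a part of an endoplasmic reticulum complex, and ATP5S and ATP5SL are now DMAC2L and DMAC2, while NDUFA4 is now COXFA4 and is assigned to complex IV.

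Each array compared treated RNA, labelled with Cy5, with control RNA of the same line, labelled with Cy3. The prostate cancer lines were PC3, DU145 and LNCap, the head and neck squamous cell carcinoma lines FaDu and SAS, and the renal cell carcinoma lines A498 and 786O. The flavonoids were genistein (PC3 and DU145, against untreated cells per the labels and against vehicle per the study's methods) and wogonin (SAS and FaDu, against DMSO). Short interfering RNAs against CAV2 (A498 and 786O), LAMB3 (FaDu and SAS) and GOLM1 (DU145 and PC3) were set against control siRNA. Transfected miRNAs were set against control miRNA: miR-145 (PC3, DU145 and LNCap), miR-143 (DU145 and PC3), miR-27b (PC3, 786O and A498), miR-375 (FaDu), miR-29a (SAS), and miR-23b and miR-24 (PC3). The chemokine CXCL10 was given to 786O cells for 12 h or 24 h, against untreated cells. Every line is an established culture grown without the tissue's other cells, each treatment was hybridised once per line or time, and dyes were never swapped, so a probe's dye bias and its treatment effect cannot be told apart. In extracts of whole cultures, fewer cells that express a gene and less of its RNA per cell cannot be told apart.

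The respiratory chain passes electrons from NADH and succinate through complexes I, III and IV to oxygen and pumps protons across the inner mitochondrial membrane, and ATP synthase uses the return flow of protons to make ATP. Most subunits are encoded in the nucleus and imported, whereas a small core of complexes I, III, IV and V is encoded in the mitochondrial DNA, so each complex is built from products of both genomes. Nuclear respiratory factor 1 (NRF1), ETS-family factors such as GABP, and YY1 are known regulators of the nuclear genes.

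Motifs of these regulators were looked up in the RefSeq promoters (build GRCh38.p14, from 250 bases before to 50 after each gene's start) of the 68 members that had one, on both strands. The NRF1 motif GCATGCGC stood in 12 members (17.6%) against 3.68% of the promoters of all 27305 genes, the ETS motif CCGGAAG in 19 (27.9%) against 12.2%, and the YY1 motif AAGATGGC in 11 (16.2%) against 3.52%. The CCAAT box, with its letters CCAAT, stood in 25 members (36.8%) against 39.7% of all genes. At least 1 of the NRF1, ETS and YY1 motifs was found in 35 of the 68 members. A match of letters describes the promoter and is no measured binding site. The windows of 30 bases below belong to members whose values are described further on (NDUFB4, ATP5C1, COX6B1 and NDUFS4 with genistein, NDUFA5 with 3 miRNAs in PC3, NDUFS7 with miR-24), and capitals mark the motif on the gene's strand or its reverse complement.
NDUFB4, NRF1 motif, chr3:120596168-120596197, plus strand: gagcacttcgcGCATGCGCatatcaccgag
ATP5C1, NRF1 motif, chr10:7788146-7788175, plus strand: ggagcttcggcGCATGCGCgctgaggcctg
NDUFS7, NRF1 motif, chr19:1383823-1383852, plus strand: ttccggtttccGCATGCGCtccgagccgct
NDUFA5, NRF1 motif reversed, chr7:123557958-123557987, minus strand: gtatgcccatcGCGCATGCgtcaatttttc
COX6B1, ETS motif reversed, chr19:35648300-35648329, plus strand: acctctctcagCTTCCGGctggtagtagtt
NDUFS4, YY1 motif, chr5:53560649-53560678, plus strand: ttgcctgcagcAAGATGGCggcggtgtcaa

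The miRNAs whose arrays held the most members past the size limit below, together with miR-145, are shown as mature RefSeq sequences of the arm usually taken as the active one, since the labels name no arm. Capitals mark the seed (bases 2 to 8), the stretch by which a miRNA pairs with its targets. All 7 miRNAs of the series have different seeds, including miR-23b, miR-27b and miR-24, whose genes lie within 1 kb on chromosome 9.
hsa-miR-375-3p, chr2:219001648-219001669, minus strand: uUUGUUCGuucggcucgcguga
hsa-miR-145-5p, chr5:149430661-149430683, plus strand: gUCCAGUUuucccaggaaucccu
hsa-miR-23b-3p, chr9:95085265-95085287, plus strand: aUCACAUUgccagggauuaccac
hsa-miR-27b-3p, chr9:95085505-95085525, plus strand: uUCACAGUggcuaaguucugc
hsa-miR-24-3p, chr9:95086064-95086085, plus strand: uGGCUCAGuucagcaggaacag

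No spot was saturated, and between 53.2% and 67.6% of Cy3 spots and 54.2% and 68.9% of Cy5 spots were well above background. The siRNA targets were lower on their arrays, with log2 ratios of -3.80 and -3.20 for CAV2, -2.50 (FaDu) and -0.89 (SAS) for LAMB3, and -3.02 and -4.15 for GOLM1. In the control channel, A498 and 786O carried the renal markers PAX8, PAX2 and CDH6 and FaDu and SAS the squamous markers KRT5, KRT14, TP63 and DSG3, whereas of the prostate markers PC3 carried HOXB13 at 14.28 and LNCap at 14.67 (log2 signal, first design) and DU145 did not, and KLK3 stood at 11.60 in LNCap but near background elsewhere, at 3.59 in DU145, where both arrays passed the background test, and 3.55 in PC3. The number of arrays limits the precision: the scanner software's own error of a member's log2 ratio had medians between 0.204 and 0.207 per array, and with 1 array per treatment and line there was no replicate of it.

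The members' ratios spread less than those of genes in general. On a single array a member was counted as higher or lower when its log2 ratio of treated over control lay past 0.5 or -0.5, a limit of size with no test. Over all arrays 1899 member values were measured, of which 70 were past the limit on the higher side and 85 on the lower side. The share of members past the limit was below the share of all genes on 24 of 24 arrays, and the interquartile range of their log2 ratios was narrower on 24 of 24. Genes were not matched for signal, and 77 of the 83 members were well above background in both channels on every array. Among genes well above background in both channels, the share of members past the limit was also below that of all such genes on 24 of 24 arrays. Whether the narrower spread goes with brightness among these genes was not tested. The span ran from the knock-down of CAV2 in A498 and 786O, with 0 members past the limit on either array (against 4.66% of all genes higher and 4.73% lower in A498, and 4.37% and 3.79% in 786O), to miR-375 in FaDu with 30 members past it.

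**Figure D1:**
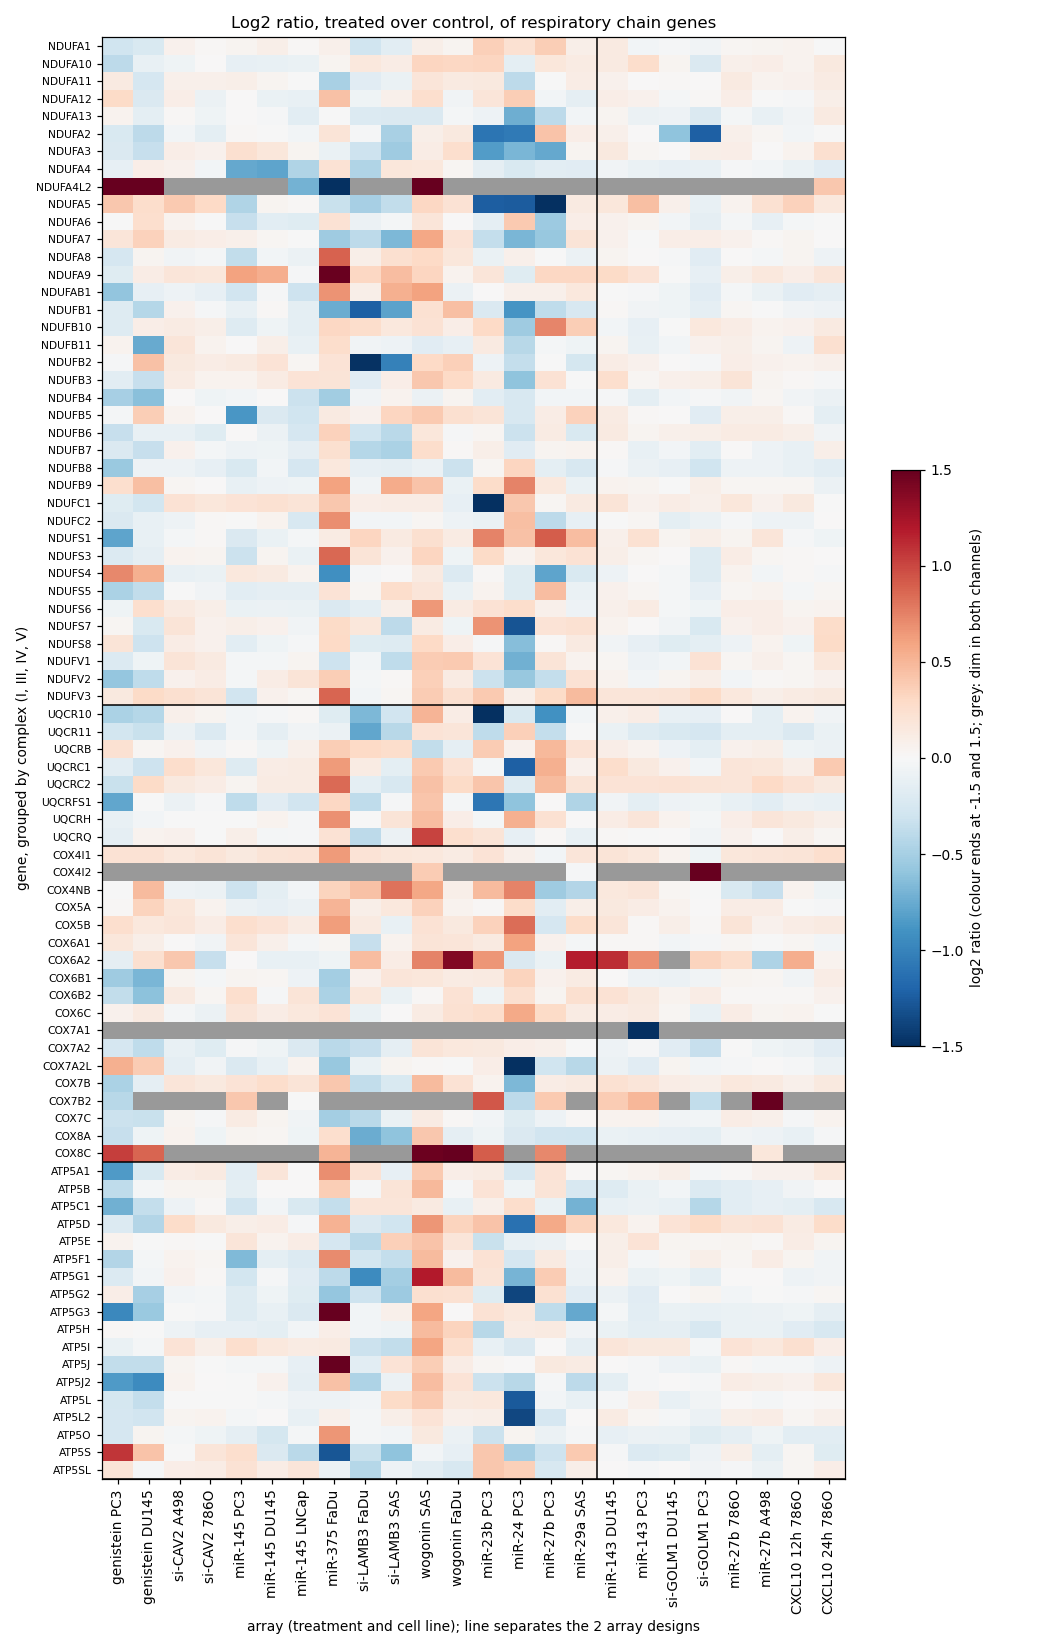
Log2 ratio of treated over control (colour scale) for the members reported here (vertical axis, grouped by complex) on each of the 24 arrays (horizontal axis, grouped by treatment). Most cells are pale, grey cells were dim in both channels, colours end at -1.5 and 1.5, and a line parts the 2 array designs. The arrays of the second design and of si-CAV2 are mostly pale, while miR-24 in PC3 holds 22 members past the limit on the lower side and miR-375 in FaDu 20 on the higher side.

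The most even members belonged to complexes IV and I. Among members well above background in both channels everywhere, COX7A2 spanned 0.59 on the log2 scale from its lowest to its highest array, COX7C 0.64, COX5A 0.66, and NDUFA12, NDUFA1 and NDUFA11 0.67 each. The widest spans were those of ATP5G3 (2.77), a gene for subunit c of the proton-conducting ring of ATP synthase, ATP5S (2.35), COX7A2L (2.29), a factor that joins complexes III and IV, UQCR10 (2.19), a small subunit of complex III, ATP5G1 (2.13), another gene for subunit c, and NDUFC1 (2.13), an accessory subunit of complex I. COX4I1, the largest nuclear-encoded subunit of complex IV, lay above 0 on 22 of 24 arrays with a median of 0.18, and UQCRFS1, the Rieske iron-sulphur subunit of complex III, on 3 of 24 with a median of -0.10. Such a lean in one direction across unrelated treatments cannot be told apart from dye bias of the probe.

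**Figure D2:**
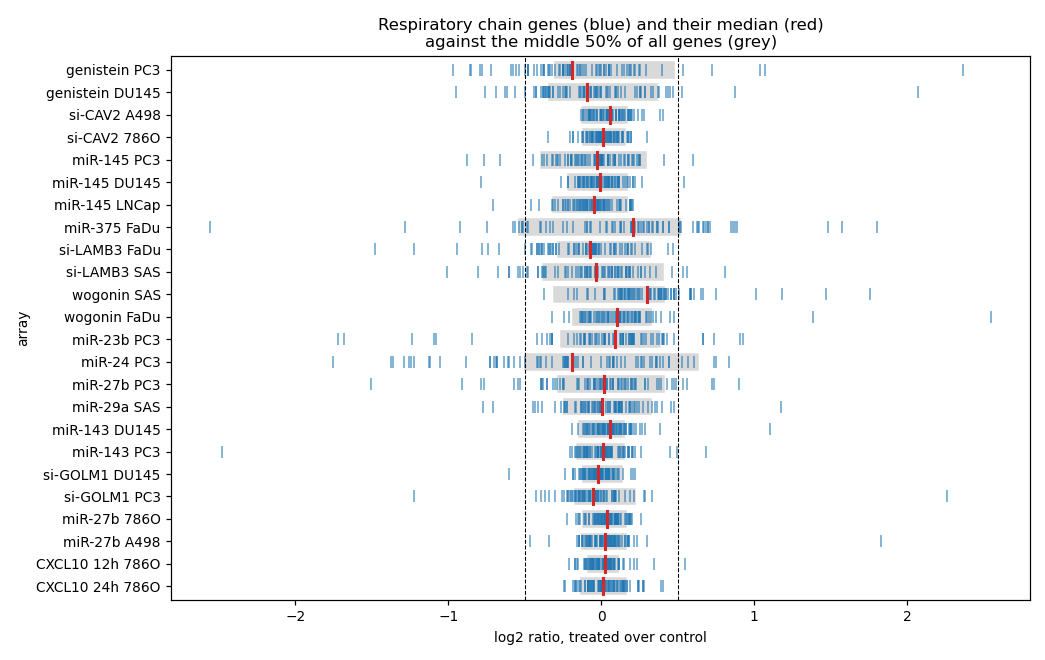
Log2 ratio of treated over control (horizontal axis) of each member (blue ticks) on each array (vertical axis), with the members' median in red, the interquartile range of all genes in grey and dashed lines at -0.5 and 0.5. Most ticks lie between the dashed lines, with the median of wogonin in SAS at 0.30 and that of miR-24 in PC3 at -0.19.

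With genistein, a soy isoflavone, the ATP synthase genes ATP5J2, ATP5G3 and ATP5C1 and the genes COX6B1 and NDUFB4 fell over the 2 prostate lines, and NDUFS4 and NDUFA4L2 rose. By size, 5 of 81 measured members were higher in PC3 (24.1% of all genes) and 10 were lower (16.9%), and in DU145 3 of 80 were higher (18.3%) and 6 lower (17.2%). The median log2 ratio of the members was -0.19 in PC3 and -0.09 in DU145, against 0.09 and 0.0033 for all genes. In PC3, 25 of 81 members lay above 0, and in DU145 28 of 80. Both lines were then joined in a limma fit, as the mean of the arrays against 0 with a spread shared over all arrays of the design, which treats lines as replicates and leaves out the spread between cultures of a line. At a Benjamini-Hochberg adjusted p under 0.05 over all genes, 2 of 80 members rose, against 4.82% of all genes, and 5 fell, against 3.81%.

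ATP5J2, subunit f of the membrane part of ATP synthase, had log2 ratios of -0.85 in PC3 and -0.95 in DU145. It fell by 0.90 on the log2 scale (SE 0.14, limma adjusted p = 0.0113), and its second probe read -0.75 and -0.89. ATP5G3, the subunit c gene of the widest span, was at -0.97 in PC3 and -0.56 in DU145 and fell by 0.76 (SE 0.16, limma adjusted p = 0.0300). The other genes for subunit c went elsewhere on these arrays: ATP5G1 was at -0.21 and -0.04, and ATP5G2 at 0.10 in PC3 and -0.50 in DU145. ATP5C1, the gamma subunit that turns inside the catalytic head, was at -0.72 and -0.36 and fell by 0.54 (SE 0.14, limma adjusted p = 0.0487).

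In complex IV, COX6B1, a subunit at the contact of the enzyme's dimer, fell with -0.54 in PC3 and -0.69 in DU145 (limma adjusted p = 0.0202). In complex I, NDUFB4, an accessory subunit of the membrane arm, fell with -0.50 and -0.63 (limma adjusted p = 0.0353). NDUFS4, an accessory subunit of the peripheral arm whose loss is known from Leigh syndrome, rose with 0.72 in PC3 and 0.53 in DU145, by 0.63 on average (SE 0.13, limma adjusted p = 0.0252). NDUFA4L2, a relative of NDUFA4 known as a hypoxia-inducible gene, rose with fitted ratios of 2.37 and 2.07 (limma adjusted p = 0.0461). Its control channel was not well above background on either array, so its level was at least 1.58-fold higher, against the lowest signal well above background. Its call held in 3 of 6 alternatives and was lost when either line was left out, and the ratio was 0.47 with normexp background correction and loess (adjusted p = 0.0677). Past the size limit on both arrays lay COX8C, NDUFA4L2 and NDUFS4 on the higher side (8.25% of all genes) and ATP5G3, ATP5J2 and COX6B1 on the lower side (5.7%).

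The remaining core subunits moved mostly in PC3. ATP5A1, the alpha subunit of the catalytic head, was at -0.85 in PC3, NDUFS1, the large iron-sulphur subunit of complex I, at -0.79, and UQCRFS1 at -0.78, and none of them passed the limma test over both lines. Without PC3, 0 of the 7 calls were left and without DU145 4 of them, among 7 calls in all. With both arrays fitted alone limma called 0 members.

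**Figure D3:**
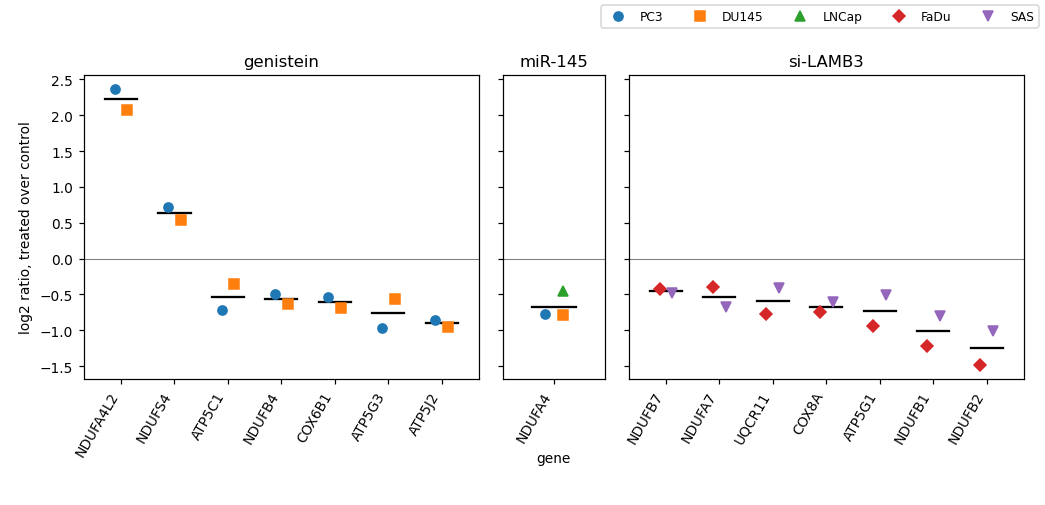
Log2 ratio on each array (vertical axis) for the members (horizontal axis) called by limma at an adjusted p under 0.05 with genistein, miR-145 and si-LAMB3, with 1 point per cell line and a bar at the mean. The points of a member lie on the same side of 0 in every line of its treatment.

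The subunits encoded in the mitochondrial DNA were far lower than the nuclear members with genistein. All 13 of them were bright on the arrays. Their median in PC3 lay at -2.90 on the log2 scale, which is 7.49-fold lower. There 12 of 13 lay past the limit on the lower side (16.9% of all genes). In DU145 their median lay at -0.49, with 6 of 13 past it (17.2%). In PC3 they ran from -3.57 for COX3, a core subunit of complex IV, to -0.29 for ND1, a core subunit of complex I, and in DU145 the lowest was COX2 with -1.27. Over both lines 7 of 13 fell by limma (3.81% of all genes) and 0 rose (4.82%). COX2, which takes up electrons from cytochrome c, fell by 2.22 (SE 0.35, limma adjusted p = 0.0128), ND6 fell by 2.02 (limma adjusted p = 0.0289) and ND3 fell by 1.66 (limma adjusted p = 0.0256). COX3 (-2.14), ND5 (-1.86), CYTB (-1.77), the mitochondrially encoded subunit of complex III, and ATP8 (-1.20), a subunit of ATP synthase, also fell, with limma adjusted p up to 0.0488. The size rests on PC3: without it 1 of the 13 was called, and without DU145 12. With the genistein arrays fitted alone limma called 0 of the 13, and without a filter on dim probes 2.

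The median of these genes in the control channel moved with this result. The median Cy3 level of the 13 genes, as quantile-normalised log2 signal, was 15.48 on the genistein array of PC3 against 14.49 to 14.98 on the 4 other PC3 arrays of the design, and 16.24 on the genistein array of DU145 against 15.25 on the other DU145 array. ND6 ran against this in DU145, at 9.14 against 10.60. In PC3 ND1 (13.72) and ND6 (11.29) lay within the range of the other arrays. The remaining genes stood higher on both genistein arrays. The genistein controls were untransfected and the others transfected, and the part of the Cy3 difference in the log2 ratios was not tested. With wogonin the same 13 genes lay on the other side, with medians of 0.60 in SAS and 0.66 in FaDu. In SAS 7 of 13 were past the limit (20.4% of all genes higher) and in FaDu 12 (15.7%). Yet limma called 0 of 13 (1.67% of all genes higher). This side was not particular to wogonin. With miR-27b in PC3 their median was 0.64, with 7 higher (21% of all genes) and 2 lower (15.2%). With miR-23b in PC3 it was 0.36, with 3 higher (18.9%) and 2 lower (14.2%), counts near the shares of all genes. The wogonin arrays and these arrays of PC3 lay on the same slide.

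**Figure D4:**
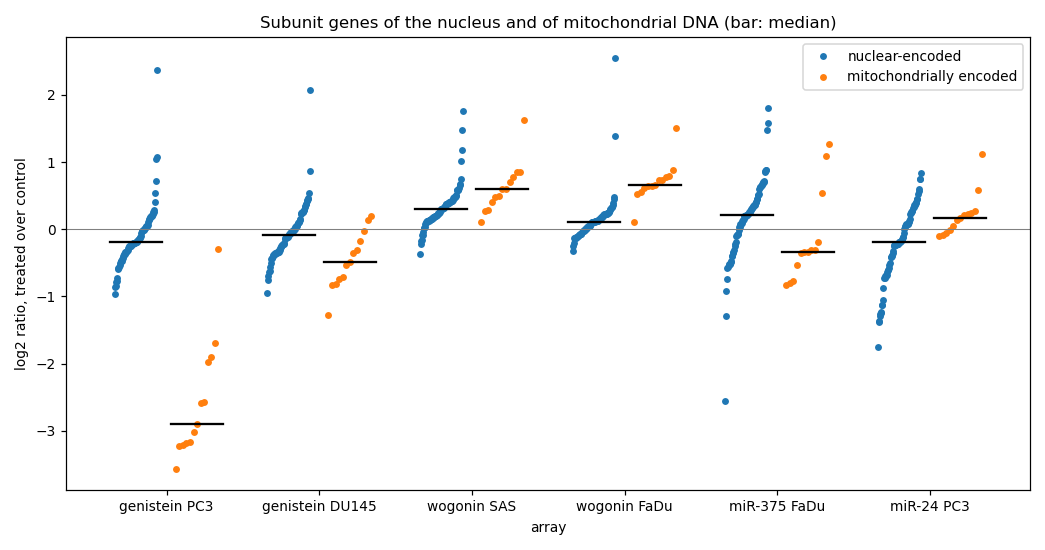
Log2 ratios (vertical axis) of the nuclear members (blue) and of the 13 mitochondrially encoded subunits (orange) on 6 arrays (horizontal axis), with each gene as a point and a bar at the median. The mitochondrially encoded genes reach a median of -2.90 with genistein in PC3, where the nuclear members have a median of -0.19.

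By size 8 of 33 assembly factors were higher in PC3 (24.1% of all genes) and 11 of 33 in DU145 (18.3%). Of the hypoxia-inducible genes 2 were higher and 3 lower of 6 in PC3 (24.1% and 16.9% of all genes). In DU145 3 were higher and 0 lower of 7 (18.3% and 17.2%). None of the 4 subunits of complex II (median -0.17), the 2 cytochrome genes (0.19), the 10 regulators (0.05), the 13 citrate cycle enzymes (-0.09) or the 6 hypoxia-inducible genes (-0.14) passed the limma test. Of 33 assembly factors (median 0.17), 3 rose (4.82% of all genes): COX18, an inserter of COX2 into the membrane, by 1.90 with an adjusted p of 0.0491, TTC19, a factor of complex III, by 0.65 and TIMMDC1, a factor of complex I, by 0.53. Of 76 proteins of the mitochondrial ribosome (median 0.06), MRPS16 fell, at -0.64 (3.81% of all genes).

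Knock-down of LAMB3, a laminin chain of epithelial basement membranes, went with falls of NDUFB2 and NDUFB1, small subunits of the membrane arm of complex I, and of 5 other members. By size, 0 of 78 members were higher in FaDu (15.3% of all genes) and 6 lower (14.7%), and in SAS 3 were higher (20.6%) and 8 lower (19.8%). Over both lines 7 of 78 members fell by limma, against 5.41% of all genes, and 0 rose, against 4.05%, with 2 higher and 15 lower at an unadjusted p under 0.05 (27.4% of all genes). The members' median was -0.04 and that of all genes 0.02.

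NDUFB2, an accessory subunit whose probe lies at hg19 chr7:140404686-140404745, was at -1.48 in FaDu and -1.01 in SAS. It fell by 1.24 on the log2 scale (SE 0.16, limma adjusted p = 0.00430). NDUFB1, also of the membrane arm, was at -1.22 and -0.81 and fell by 1.01 (SE 0.14, limma adjusted p = 0.0066). Both had lower values in FaDu, where the LAMB3 ratio was also the lower one, and that relation was not tested. The other falls were smaller: ATP5G1 (-0.94 and -0.51, limma adjusted p = 0.0432), COX8A, the smallest subunit of complex IV (-0.74 and -0.61, 0.0314), UQCR11 of complex III (-0.78 and -0.41, 0.0244), NDUFA7 (-0.39 and -0.68, 0.0439) and NDUFB7 (-0.42 and -0.48, 0.0479). Past the limit on both arrays lay ATP5G1, COX8A, NDUFB1 and NDUFB2 (8.28% of all genes). Without FaDu NDUFB2 alone was still called, without SAS NDUFB1 and NDUFB2, and with both arrays fitted alone no member.

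The neighbours in the pathway were mixed. COX11, a copper chaperone of complex IV, fell by 1.08 and was 1 of 31 assembly factors to pass (5.41% of all genes lower). Of 76 ribosomal proteins MRPL10 (0.61) and MRPS22 (0.60) rose (4.05% of all genes higher). MRPL24 (-0.69), MRPL41 (-0.67) and MRPS21 (-0.56) fell. The 13 mitochondrially encoded subunits had a median of -0.25 and none was called. Of 8 hypoxia-inducible genes EGLN3, an oxygen-sensing hydroxylase, fell, at -2.08.

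With miR-145, a miRNA reported as low in prostate cancer, a single member stood out. NDUFA4 had log2 ratios of -0.77 in PC3, -0.79 in DU145 and -0.46 in LNCap and fell by 0.67 (SE 0.14, limma adjusted p = 0.0226), as 1 of 78 members tested against 3.85% of all genes lower. None rose, against 3.97% of all genes. Its probe lies at hg19 chr7:10973185-10973244. All 3 lines lay below 0, with LNCap the least low and just inside the size limit, and the call was lost without PC3 and without DU145. By size the counts were low in every line: 1 higher and 3 lower of 79 in PC3 (17.1% and 19.3% of all genes), 1 and 1 of 78 in DU145 (8.22% and 7.88%), and 0 and 1 of 80 in LNCap (13.5% and 11.9%). NDUFA9, at the junction of the arms of complex I, read 0.60 in PC3 and 0.54 in DU145, and NDUFB5, a subunit of the membrane arm, read -0.88 in PC3.

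Among the regulators, 2 of 10 fell with miR-145, against 3.85% of all genes. TFAM, which packages and transcribes mitochondrial DNA, was at -1.41 in PC3, -0.61 in DU145 and -0.49 in LNCap and fell by 0.84 (limma adjusted p = 0.0221). ESRRA, a nuclear receptor that drives genes of the respiratory chain, was at -0.89, -0.28 and -0.61 and fell by 0.59 (limma adjusted p = 0.0275). The 13 mitochondrially encoded subunits had a median of -0.16 with none called. Of 76 mitochondrial ribosomal proteins 3 fell, near the share of all genes: MRPL51 (-0.89), MRPS18B (-0.81) and MRPS27 (-0.48). COX16 fell at -0.41 as 1 of 31 assembly factors, also near that share. ADM, the hypoxia-inducible adrenomedullin, rose by 1.46 as 1 of 6 (3.97% of all genes).

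With wogonin, a flavone from skullcap, most members had ratios above 0, and the SAS array held more members above 0 than any other array. In SAS 74 of 81 members lay above 0, against 54.3% of all genes, with a median of 0.30 against 0.05, and 13 were past the limit on the higher side (20.4% of all genes) and 0 on the lower side (17.1%). In FaDu 56 of 79 lay above 0, against 56.9% of all genes, with a median of 0.11 against 0.06, and 2 were past the limit on the higher side (15.7%) and 0 on the lower (9.79%). In SAS the medians of complexes III (0.43) and V (0.41) were above those of complexes I (0.24) and IV (0.21).

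ATP5G1 was at 1.18 in SAS and 0.48 in FaDu (mean 0.83), and UQCRQ, a small subunit of complex III, at 1.01 in SAS. The limma test did not pass ATP5G1 (adjusted p = 0.0528). It passed 1 of 79 members on the higher side, against 1.67% of all genes, and 0 on the lower side, against 1.09%, with 17 higher and 0 lower at an unadjusted p under 0.05, where 21.5% of all genes stood. That member was COX6A2, the heart and muscle isoform of a complex IV subunit, at 0.75 and 1.39 (limma adjusted p = 0.0450), with a control channel not well above background, so that its level was at least 1.55-fold higher. COX8C, the testis isoform of COX8, lay past the limit with it on both arrays (6.17% of all genes). Its control channel was also dim, and it was at least 2.47-fold higher in FaDu, while in SAS the bound lay under 1 and gives no fold.

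The wogonin count depends on how dye and slide bias are handled. With the mean ratio of other treatments on the same slide subtracted from each probe, 17 of 79 members were called, 16 of them higher (7.81% of all genes) and 1 lower (5.48%), and COX6A2 was not among them. It was not called without SAS either, and without FaDu ATP5G1 and UQCRQ were called in its place.

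By size 17 of 33 assembly factors, 32 of 76 mitochondrial ribosomal proteins and 6 of 13 citrate cycle genes were higher in SAS (20.4% of all genes). In FaDu these were 2 of 32, 1 of 76 and 1 of 13 (15.7%). Of the hypoxia-inducible genes 5 of 8 were lower in SAS (17.1% of all genes) and 6 of 7 in FaDu (9.79%). That was not particular to wogonin, with 5 of 6 lower with miR-23b in PC3 (14.2%) and 4 of 7 with miR-27b in PC3 (15.2%). Over both lines, ATPAF1, which helps build the catalytic head of ATP synthase, rose by 2.37 (limma adjusted p = 0.000965), with 2.20 in SAS and 2.53 in FaDu. Of 32 assembly factors (median 0.33), 3 rose (1.67% of all genes), namely ATPAF1, UQCC of complex III (0.89) and NDUFAF3 of complex I (0.71). PPARGC1B, a coactivator of mitochondrial biogenesis, rose by 1.82 as 1 of 10 regulators, and DLST, a citrate cycle subunit, by 0.66 as 1 of 13. MRPS25 rose by 0.80 as 1 of 76, near the share of all genes. The hypoxia-inducible ANKRD37 fell by 2.03 as 1 of 7 (1.09% of all genes).

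The array of miR-24 in PC3 held the most members on the lower side of any array. Of 79 members 22 were lower (27.8%, against 25% of all genes) and 6 higher (7.59%, against 30%), and the median was -0.19 against 0.06. By complex, 13 of 38 members of complex I and 5 of 18 of complex V were lower, while complex IV had a median of 0.10 with 4 of 15 higher and 2 lower. COX7A2L was lowest at -1.75, with -1.40 at its second probe. ATP5G2, another gene for subunit c, was at -1.37, and COX5B, the zinc-binding subunit of complex IV, and NDUFB9, of the membrane arm of complex I, were highest at 0.84 and 0.75.

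Core subunits of complex I stood among the lower members with miR-24. NDUFS7, which holds the last iron-sulphur cluster before the quinone, was at -1.29, and NDUFV1, which binds NADH, at -0.73, while NDUFS1 was within the limit. UQCRC1, a core protein of complex III, was at -1.23 and ATP5D, the delta subunit of ATP synthase, at -1.12. ATP5L and ATP5L2 read -1.25 and -1.36, but they are near copies whose probes can share RNA. Of 7 core genes of complex I, 5 were lower and 0 higher, on an array with 25% of all genes lower and 30% higher. In the other lists 4 assembly factors were higher and 11 lower of 32, NDUFAF3 lowest at -2.54, 0 and 6 of 13 citrate cycle genes, with MDH2 at -1.34, and 7 and 22 of 76 mitochondrial ribosomal proteins. CYC1, cytochrome c1, was at -1.07. Of 10 regulators 4 were higher and 2 lower, with PPARGC1B at 2.77, of the 13 mitochondrially encoded subunits 2 and 0, and of the 4 subunits of complex II 0 and 0.

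Of the other miRNAs of this gene cluster in PC3, miR-23b had 5 members higher of 80 (18.9% of all genes) and 6 lower (14.2%), and miR-27b 5 higher (21%) and 7 lower (15.2%). With miR-23b the lowest were NDUFC1 (-1.72) and UQCR10 (-1.68, with -1.31 and -1.74 at its other probes), and the highest COX7B2 (0.93), an isoform of a small complex IV subunit, and COX8C, which was at least 1.60-fold higher against a dim control channel. With miR-27b the lowest were NDUFA5 (-1.51), an accessory subunit of the peripheral arm, and UQCR10 (-0.91), and the highest NDUFS1 (0.90) and NDUFB10 (0.74). NDUFA5 was past the limit with all 3 miRNAs, at -1.24 with miR-23b, -1.24 with miR-24 and -1.51 with miR-27b, and so was NDUFA3, another accessory subunit, at -0.84, -0.69 and -0.77. No member was higher with all 3. The Cy3 channels of these 3 arrays correlated at 0.988 to 0.989, above the 0.973 to 0.979 of 7 other pairs of PC3 controls. The labels do not say whether the 3 arrays share control RNA, and low values common to them cannot be read as independent repeats. In the renal lines miR-27b gave NDUFA5 no value past the limit.

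With miR-375 in FaDu members lay past the limit on both sides. Of 80 members 20 were higher (25.6% of all genes) and 10 lower (26.1%), and the median was 0.21 against 0.02. The highest were ATP5G3 at 1.80, ATP5J, a subunit of the stalk of ATP synthase, at 1.58 and NDUFA9 at 1.48. Subunit c genes again took different sides, with ATP5G2 at -0.58 and ATP5G1 at -0.39. Of the core subunits UQCRC2 of complex III was at 0.85, ATP5A1 at 0.70, UQCRC1 at 0.64, COX4I1 at 0.63 and COX5A at 0.51, while UQCRFS1 (0.31), ATP5B (0.37), NDUFS1 (0.12) and NDUFV1 (-0.31) lay within the limit. Of 7 core genes of complex I, 1 was higher and 0 were lower. The lowest were ATP5S at -1.28 and NDUFS4 at -0.92, apart from NDUFA4L2, whose treated channel was not well above background and which was at least 1.60-fold lower. The mitochondrially encoded subunits had a median of -0.33, with 3 higher and 4 lower of 13.

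The remaining treatments left nearly all members within the limit. With miR-29a in SAS 1 of 79 members was higher (15.4% of all genes), COX6A2 at 1.17 with a dim control channel and thus at least 1.20-fold higher, and 2 were lower (13.1%), ATP5G3 at -0.77 and ATP5C1 at -0.70. MiR-143 had 1 higher and 0 lower of 79 in DU145 (5.21% and 4.23%) and 1 and 1 of 80 in PC3 (4.87% and 4.76%). COX6A2 was past the limit in both lines (1.01% of all genes), with the control channel dim, and was at least 1.66-fold higher. Limma called 0 of 79 members with miR-143 (0.292% of all genes higher and 0.429% lower), with 9 higher and 0 lower at an unadjusted p under 0.05 (17.7% of all genes).

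Knock-down of GOLM1, a Golgi membrane protein, had 0 members higher and 1 lower of 77 in DU145 (2.98% and 2.97%) and 1 and 1 of 80 in PC3 (7.91% and 5.53%). The lower one was NDUFA2, an accessory subunit of the peripheral arm, in both lines (1.04% of all genes), at -0.60 in DU145 and -1.22 in PC3. It missed the limma threshold (mean -0.91, adjusted p = 0.056), so that 0 of 77 members were called (0.271% and 0.382% of all genes), with 3 higher and 7 lower at an unadjusted p under 0.05 (22.5% of all genes). Of 76 mitochondrial ribosomal proteins MRPL46 fell, at -0.82.

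In the renal lines hardly a member passed the limit. Limma called 0 of 78 members with si-CAV2 (0% and 0.115% of all genes), 0 of 78 with miR-27b in 786O and A498 (0.657% and 1.1%), and 0 of 78 with CXCL10 (0.047% and 0.0739%). At an unadjusted p under 0.05 these had 1, 6 and 7 members, against 4.56%, 17.1% and 8.79% of all genes. By size miR-27b had 0 higher and 0 lower of 78 in 786O (5.52% and 4.54%) and 1 and 0 of 80 in A498 (5.43% and 4.37%). CXCL10 had 1 and 0 of 78 at 12 h (3.4% and 2.36%) and 0 and 0 of 79 at 24 h (4.08% and 3.39%). Of 33 assembly factors PET117, of complex IV, fell at -0.43 with miR-27b in the renal lines.

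Most tissue-restricted isoforms were near background in the control channel, apart from COX6B2, whose brightest probe was well above it on every array. Of the 83 members 77 were well above background in both channels on all arrays. Of the other isoform genes COX6A1 ran from -0.34 with si-LAMB3 in FaDu to 0.60 with miR-24, COX6B2, the testis isoform of COX6B1, from -0.62 with genistein in DU145 to 0.25, and COX7B from -0.68 with miR-24 to 0.48 with wogonin in SAS. The members below background on some arrays were COX4I2, COX6A2, COX7A1, COX7B2, COX8C and NDUFA4L2. On the first design COX7B2 was well above background in LNCap, at 7.64 on the quantile-normalised log2 scale, and on all 5 PC3 arrays, at 7.72 ± 0.89 (SD, n = 5), but on none of DU145, FaDu, SAS, A498 or 786O. The second design gave the same order for its lines, with PC3 at 6.70 ± 0.11 (SD, n = 2) and no detection in DU145, 786O or A498. NDUFA4L2 reached 6.80 in LNCap and was otherwise detected on 1 of 3 FaDu arrays. COX7A1, the muscle isoform, and COX4I2, the hypoxia-responsive isoform, were detected in no control channel of the first design.

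**Figure D5:**
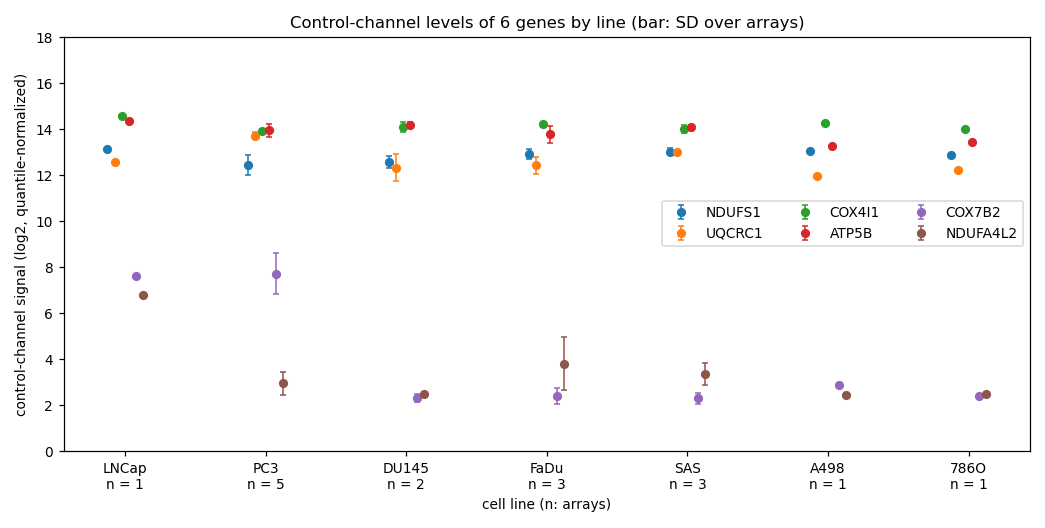
Control-channel level (quantile-normalised log2 Cy3 signal, first design) of 6 members in each of the 7 lines (horizontal axis), as means over arrays with SD bars where a line has more than 1 array. NDUFS1, UQCRC1, COX4I1 and ATP5B lie between 11.95 and 14.56 in every line, COX7B2 stands high in LNCap (7.64) and PC3 (7.72), and NDUFA4L2 in LNCap (6.80).

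The core subunits differed between lines by gene. NDUFS1 lay between 12.44 (PC3) and 13.14 (LNCap), COX4I1 between 13.91 (PC3) and 14.56 (LNCap) and ATP5B, the catalytic beta subunit, between 13.29 and 14.35. The log2 ratios of ATP5B stayed within the limit on all arrays, from -0.38 with genistein in PC3 to 0.49 with wogonin in SAS. UQCRC1 had a wider span, from 11.95 in A498 to 13.72 ± 0.14 (SD, n = 5) in PC3. The line means of NDUFV1 spanned 2.07 and those of NDUFV2 2.05, and ATP5A1, UQCRC2 and NDUFS8 spanned 1.67, 1.57 and 1.48. Over 77 members the LNCap median was 0.45 above the mean of the lines, with 67 of 77 above 0. The other lines lay closer, with PC3 at 0.09, DU145 and FaDu at -0.05, SAS at -0.13, A498 at -0.14 and 786O at -0.15, and for LNCap there was 1 array.

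On the first design the renal lines had lower values for most members than the other lines, but none passed the test. In simulated data that test recovered 0 of 200 genes changed by 1 or by 2 (log2), so its lack of calls cannot decide whether the lines differ. With each line counted once, limma called 0 of 80 members between renal and other lines (0.38% of all genes higher and 0.233% lower), with 5 at an unadjusted p under 0.05 (10.96% of all genes) and a smallest adjusted p of 0.329. The median difference was -0.31 for members and -0.02 for all genes, and 61 of 80 members lay below 0 (50.8% of all genes). The 5 were COX7C (-1.38), NDUFS8 (-0.99), ATP5S (-1.89), NDUFV1 (-1.07) and NDUFB1 (-1.57), and all were lower in the renal lines. On the second design, relative to the mean of its lines, the members' median was 0.02 in 786O and -0.03 in A498. It was -0.09 in DU145 and 0.21 in PC3, so the renal lines lay above DU145. COX7C was at 14.38 ± 0.29 (SD, n = 3) in 786O and 14.59 in A498 there, against 15.13 ± 0.09 (SD, n = 2) in DU145 and 16.07 ± 0.02 (SD, n = 2) in PC3. NDUFV1 was also lower in both renal lines, at 12.67 in A498 and 13.16 in 786O against 13.55 in DU145 and 14.03 in PC3. ATP5S was as low in PC3 (8.58) as in 786O (8.59) and A498 (8.51). Between squamous and prostate lines 0 of 80 members were called (0.282% and 0.0796% of all genes), with 2 at an unadjusted p under 0.05 (8.43% of all genes), ATP5J (-1.14) and NDUFV2 (-1.15). There too most members lay below 0, 60 of 80 (50.3% of all genes), with a median difference of -0.19 against -0.0056 for all genes. A lean of the members to lower values was thus not particular to the renal lines. Without DU145, 1 member was called between squamous and prostate lines.

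For a few members the probes of the same gene disagreed. NDUFC2 read 0.45 with miR-24 in PC3 at its brightest probe and -1.39 at its second. ATP5E, the epsilon subunit of ATP synthase, read 0.05 and -0.96 with genistein in PC3. COX6B2 read -0.62 with genistein in DU145 at its brightest probe and 0.34 at its second. With miR-375 in FaDu these probes read -0.48 and 0.58. Values of these genes rest on the brightest probe alone.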

How the data were processed

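Total RNA was hybridised to 24 two-colour Agilent arrays of 2 designs. The authors deposited each array's spots as read by Agilent Feature Extraction (version 10.7.3.1 in the submitters' processing notes), with intensity values for both channels and a log10 ratio of Cy5 over Cy3 after the software's background and dye correction, which was turned to log2. The deposited series matrix held the same log ratios. Control and outlier spots were left out, spots of a probe averaged, probes not well above background in at least 1 channel dropped, and the brightest probe kept per gene. Of the probes, 67.0% and 62.1% matched a RefSeq gene. Members and lists were chosen with earlier results of these data known. Fits used limma 3.58.1 in R 4.3.3, tested on simulated data: with genistein 122 of 200 genes changed by 1 (log2) were recovered and 181 of 200 changed by 2. The control-channel fit used quantile-normalised Cy3 signal, averaged per line. In simulated data for renal against other lines it recovered 0 of 200 genes at either size.

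Named were the members with the largest changes past 0.5 on every array of a treatment, or on a lone array, fixed core and isoform genes, the widest and narrowest ranges, and genes past the test. Others were chosen after their values were seen. Lists covered complex II, cytochromes, mitochondrially encoded subunits, assembly factors, regulators, the citrate cycle, hypoxia-inducible genes and the mitochondrial ribosome. Doses and exon positions of probes were not used here, and a few genes covered by the counts are not reported here by name.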

Additional observations from a re-analysis of the deposited data

How the results depend on the processing

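No member or mitochondrially encoded subunit called by limma changed the sign of its mean log2 ratio under any alternative. The signs of values on single arrays were not checked in this way. Over all arrays the 70 higher values became 45 with normexp background correction and loess and 17 at a limit of 1.0, and the 85 lower values 23 at 1.0. With only a treatment's own arrays in the fit, limma called 0 members for genistein (7 calls otherwise), miR-145 (1), si-LAMB3 (7) and wogonin (1), and 0 of the mitochondrially encoded subunits for genistein (7). Leaving out each array in turn gave 0 to 7 members for genistein, 1 to 12 mitochondrially encoded subunits, 0 to 1 for miR-145, 1 to 2 for si-LAMB3, 0 to 2 for wogonin and 0 to 1 for si-GOLM1, and without DU145 the squamous contrast had 1. At an adjusted p under 0.1 the counts were 14 for genistein, 2 for miR-145, 11 for si-LAMB3, 6 for wogonin and 1 for si-GOLM1. Normexp and loess gave 15, 2, 11, 2 and 3 for these, and 1 each for miR-143 and miR-27b; no background correction gave 15, 2, 2 and 1 for genistein, miR-145, wogonin and si-GOLM1, and 1 for miR-27b. With the slide mean of other treatments subtracted the counts were 14 for genistein, 5 for miR-145 and 17 for wogonin. For wogonin, median centring and detection in both channels gave 0 and the mean over probes 2, and the mean over probes gave 1 for si-GOLM1. Without a filter on dim probes 2 mitochondrially encoded subunits were called, with more genes tested. The cause of the other moves was not tested. Of 432 alternatives to the counts on single arrays, 94 moved the count by over 1.5 times.

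Lines stand in for replicates, slide and treatment are partly tied, and signal near background limits the 6 tissue-restricted members. No paired analysis was possible because each treatment and line has 1 array and the labels carry no replicate numbers.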
